A study of Mus musculus with 40 samples.

Results

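The data described here are the H3K9me2 map of control mouse oocytes, read against the RNA of control oocytes. Members were the 10 kb windows of the autosomes in which both control H3K9me2 libraries held at least 1 read. There were 238042 such windows among 245905 autosomal windows and 272158 windows in the table. Of the autosomal windows left out, 7378 held no read in either library and 485 held reads in 1 library only, with a median of 1 read and at most 13. Just inside the limit, 85 member windows held 1 read in both libraries.

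The oocytes were at the germinal vesicle (GV) stage, the arrested, fully grown stage before meiosis resumes, and came from mice aged 22 to 25 days. Each sample pooled 100 to 200 oocytes, per the series' design text. The series holds 40 samples and also covers mutants of the methyltransferases G9A and GLP, which are not used here. The H3K9me2 group had 2 samples of control genotype, called library 1 and library 2 below. The RNA group had 6 control samples titled WT, 3 from a mouse line coded GKAO and 3 from one coded GKAQ. The labels do not say which floxed alleles or Cre transgenes the controls carried, or whether samples came from separate animals. Differences between libraries may therefore be technical, and the RNA and H3K9me2 samples are not the same oocytes.

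H3K9me2 is the dimethyl mark on lysine 9 of histone H3, a mark of repressed chromatin that lies in broad domains over silent genes and intergenic DNA. G9A (gene Ehmt2) and GLP (gene Ehmt1) write it as a pair, demethylases such as Kdm3a remove it, and proteins such as heterochromatin protein 1 (Cbx genes) read H3K9 methylation. In growing oocytes, transcription through gene bodies is known to accompany deposition of other marks and of DNA methylation.

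The ChIP libraries were made from native chromatin with 250 ng of antibody, and their values are log2 RPM (reads scaled to a library total of 1000000) per window. Library 1 held 7048784 reads in the windows and library 2 held 19128881. A member window had a median of 28 reads in library 1 and 77 in library 2, which gives counting SDs of 0.273 and 0.164 log2. The control RNA libraries held 1458868 to 2399680 reads in 38540 loci. Across loci with a read in at least 1 of these libraries, the 15 pairwise Pearson correlations ran from 0.961 to 0.970. All 12 matched oocyte markers of 14 listed had a mean RNA of at least 3 log2 RPM, and their summed level was 17098 to 19981 RPM per library. Granulosa and cumulus markers summed to 381 to 449 RPM over 17 matched genes, of which Cyp19a1, Nr5a2 and Bmpr1b reached 3 log2 RPM. Theca and stroma markers summed to 0 to 5.00 RPM over 7 genes, with Col1a2, Acta2 and Tcf21 at 0. Of the endothelial markers, 3 matched and Pecam1 and Tek reached 3 log2 RPM, for a sum of 105 to 180 RPM. The 4 matched blood markers were at 0 in every library. The part of other cells in the RNA values was not tested, and in such bulk samples fewer cells of a type and less RNA per cell cannot be told apart.

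Sequences at 4 gene starts show the range of starts discussed below. Each is the RefSeq promoter of the GRCm38.p6 assembly, 250 bases before to 50 bases after the annotated start, with every CG in capitals on the printed strand. Rdx and Fip1l1 are among the 10 gene-named loci with the most RNA and have little H3K9me2. Gli2 is transcribed and has much H3K9me2, and Slc6a3 had no RNA read. The mean H3K9me2 of Slc6a3 over both libraries was the highest of the 94 named loci without a read and with at least 5 member windows. Rdx lies at chr9:52046900-52047199 (+) with 3 CG, Fip1l1 at chr5:74535241-74535540 (+) with 24, Gli2 at chr1:119053570-119053869 (-) with 28, and Slc6a3 at chr13:73536497-73536796 (+) with 20.
Rdx: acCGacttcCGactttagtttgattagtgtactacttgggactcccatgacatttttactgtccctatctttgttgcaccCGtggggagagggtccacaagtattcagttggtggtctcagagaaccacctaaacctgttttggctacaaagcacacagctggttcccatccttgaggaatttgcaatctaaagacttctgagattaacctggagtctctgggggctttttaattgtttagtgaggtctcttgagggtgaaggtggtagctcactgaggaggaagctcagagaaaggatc
Fip1l1: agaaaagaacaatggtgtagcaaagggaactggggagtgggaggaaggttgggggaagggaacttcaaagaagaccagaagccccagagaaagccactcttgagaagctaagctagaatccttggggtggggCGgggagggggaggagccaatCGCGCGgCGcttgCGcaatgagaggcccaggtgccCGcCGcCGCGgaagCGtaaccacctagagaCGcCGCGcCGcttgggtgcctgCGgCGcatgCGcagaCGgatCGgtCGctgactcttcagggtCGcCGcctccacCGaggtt
Gli2: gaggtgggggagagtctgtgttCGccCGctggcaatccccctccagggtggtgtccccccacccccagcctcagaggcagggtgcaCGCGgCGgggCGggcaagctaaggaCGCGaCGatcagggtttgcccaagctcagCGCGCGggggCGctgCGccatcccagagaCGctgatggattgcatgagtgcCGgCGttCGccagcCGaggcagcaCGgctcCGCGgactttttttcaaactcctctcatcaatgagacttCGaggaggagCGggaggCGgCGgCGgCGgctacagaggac
Slc6a3: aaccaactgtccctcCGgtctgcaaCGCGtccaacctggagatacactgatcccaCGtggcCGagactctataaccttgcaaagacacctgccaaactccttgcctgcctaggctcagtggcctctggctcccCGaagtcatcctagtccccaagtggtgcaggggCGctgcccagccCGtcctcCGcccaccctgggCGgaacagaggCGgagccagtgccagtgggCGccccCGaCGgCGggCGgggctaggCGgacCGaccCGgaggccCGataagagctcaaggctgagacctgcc
The 10 kb window that holds the start measured 1.71 and 1.89 log2 RPM in libraries 1 and 2 for Rdx, and 1.94 and 1.41 for Fip1l1. It measured 2.31 and 1.93 for Gli2, and 2.14 and 2.37 for Slc6a3. CG-rich starts thus appear in genes with low and with high H3K9me2, and the CG-poor start of Rdx belongs to a body with low H3K9me2.

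Reads of the H3K9me2 libraries were spread thinly over most of the autosomes, with a long tail toward low values and almost none toward high ones. Control input and IgG samples of the series were not used, so an even spread of the mark and background reads cannot be told apart. In the lowest 1% of member windows by mean level, the lower of the 2 read counts had a median of 4. The median window measured 1.99 log2 RPM in library 1 and 2.01 in library 2. The 5th percentile was 1.09 in library 1 and 1.13 in library 2, and the 95th percentile was 2.57 and 2.54. A window was called high or low when it lay at least 0.5 log2 above or below the library median in both libraries. By that rule 6046 windows were high (2.54% of all member windows) and 19071 were low (8.01%). At a limit of 1 log2, 1 window was high and 6286 were low, which is 0.00042% and 2.64%.

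The libraries shared their broad pattern more than their single windows. The Pearson correlation between libraries was 0.780 over 10 kb windows, 0.932 over 23729 bins of 100 kb and 0.968 over 2371 bins of 1 Mb. Over the 10 kb windows with at least 10 reads in both libraries it was 0.667. The SD of the difference between libraries was 0.361 log2 per window, and counting error alone gives 0.348. The libraries thus differed by little beyond counting error, and most levels below are means over many windows. In that same set of windows, a window in library 1 was also correlated with another window in library 2. This correlation was 0.355 at 10 kb distance, 0.225 at 50 kb, 0.115 at 200 kb and 0.046 at 1000 kb. The set is the windows with at least 10 reads in both libraries. Low windows fell into 13021 runs and high windows into 5150. The longest low run spanned 70 windows (chr7:31710001-32410000) and the longest high run 8 windows (chr1:92730001-92810000).

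Transcription went with lower H3K9me2. Windows were classed by the overlapping locus with the most RNA, as the mean log2 RPM of the 6 control libraries. A locus here is an interval of the authors' oocyte gene table, with or without a gene name, and counts as transcribed from 3 log2 RPM. The mean H3K9me2 level was 1.72 log2 RPM in library 1 and 1.70 in library 2 over 25038 windows with high RNA (6 log2 or more). It was 1.85 and 1.86 over 35932 windows with middle RNA (3 to 6 log2). The level was 1.95 and 1.98 over 26165 windows with low RNA (0 to 3 log2), and 1.99 and 2.01 over 18687 windows with trace RNA (below 0 log2). The order high, middle, low, trace RNA was the same in both libraries, and the gap between high and trace RNA was 0.272 log2 in library 1 and 0.310 in library 2. Within a class the libraries differed by 0.0063 to 0.029 log2.

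Windows without transcription were alike in their medians. The 123786 windows without a locus had a mean of 1.95 in library 1 and 1.98 in library 2, and the 8434 windows whose loci had no RNA read in any control had 1.90 and 1.91. Their medians, 2.04 and 2.08 without a locus and 2.04 and 2.05 without a read, lay close to the medians of trace windows, 2.04 and 2.08. Means in the silent class are pulled down by its lowest windows. Of that class 4.79% lay at least 1 log2 below the median in both libraries. The share was 1.94% of transcribed windows and 2.64% of all windows. The level is the scaled read count, so a minimum of reads removes low levels themselves and gives no cleaner estimate. The mean difference of transcribed minus silent windows was -0.109 in library 1 and -0.120 in library 2 (mean -0.115 ± 0.0075 SD, n = 2). The mean was -0.194 with at least 10 reads per window, -0.215 by medians and -0.0190 with windows without reads included. It was negative on 16 of 19 autosomes in library 1 and on 15 in library 2, and highest on chromosome 14 at 0.303 and 0.315. By medians it was negative on all 19 autosomes, from -0.298 on chromosome 9 to -0.105 on chromosome 14. Windows with any locus differed from windows without one by -0.0822 in library 1 and -0.103 in library 2 (mean -0.0926 ± 0.015 SD, n = 2). With windows without reads included this difference turned to 0.200, since 93.6% of the 7863 windows left out hold no locus. With 2 libraries the smallest two-sided sign test p is 0.5, so no test is given.

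From trace to high RNA, the share of low windows rose and the share of high windows fell. Of the windows with high RNA, 14.7% were low and 0.515% high, against 8.01% and 2.54% of all member windows. Middle RNA gave 9.23% low and 1.24% high, and trace RNA 5.36% low and 3.06% high. Of the windows without a locus, 7.05% were low and 3.25% high, and of those whose loci had no read 8.82% were low and 3.06% high. The order of the low shares turned at the limit of 1 log2, where 2.30% of high RNA windows were low against 2.64% of all windows, 3.07% without a locus and 4.79% without a read.

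In steps of 1 log2 of RNA, the mean level of both libraries went from 2.00 log2 RPM at -1 to 0 log2 RNA to 1.91 at 3 to 4, 1.73 at 6 to 7 and 1.60 at 10 to 11. In the highest step, 11 to 12 log2, the 93 windows measured 1.74 in library 1 and 1.68 in library 2, above the 333 windows of the step before at 1.64 and 1.56. Across the 114256 windows with a locus, Spearman's rho of level with RNA was -0.301 for the mean of the libraries, -0.238 for library 1 and -0.303 for library 2. It was negative on all 19 autosomes, from -0.430 on chromosome 9 to -0.228 on chromosome 8. These windows share libraries, neighbours and base composition, and no p is given.

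**Figure D1:**
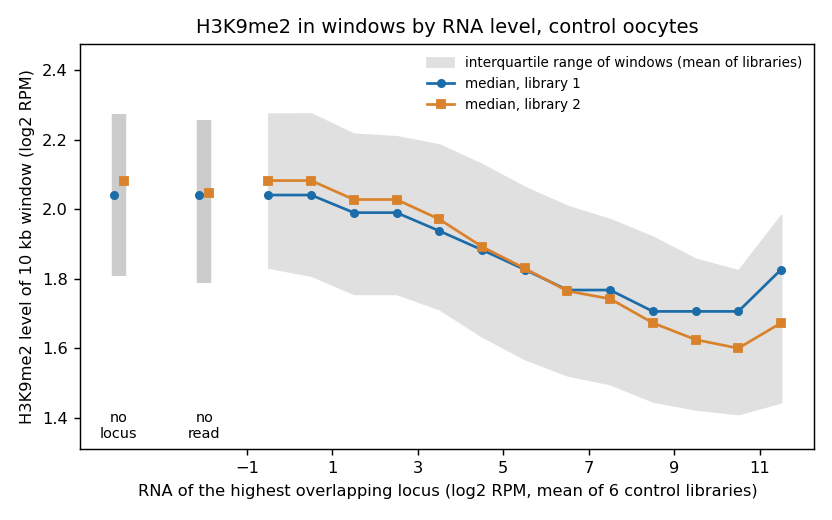
Median H3K9me2 level per 10 kb window (log2 RPM) in library 1 (circles) and library 2 (squares) by the RNA of the highest overlapping locus (log2 RPM, mean of 6 control libraries); grey spans the 25th to 75th percentile of windows, and the leftmost points are windows without a locus or without an RNA read. Medians go down from 2.04 and 2.08 at trace RNA to 1.71 and 1.60 at 10 to 11 log2, with wide overlap between steps.

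Loci without a gene name showed the same levels as named genes. Windows in which every transcribed locus was unnamed measured 1.79 in both libraries (n = 8559), and windows with a named transcribed locus 1.80 and 1.79 (n = 52411). Within high RNA alone, unnamed loci measured 1.71 and 1.69 (n = 3076) and named loci 1.72 and 1.70 (n = 20808). An exception was the 1572 windows whose transcribed loci were unnamed and that overlapped no RefSeq gene, at 1.94 and 1.95. Windows without a locus in the oocyte table measured 1.96 and 1.99 where they held a RefSeq coding gene (n = 24647) and 1.94 and 1.97 where they held no gene (n = 78735). An annotated gene without an oocyte locus therefore did not have a lower level than intergenic DNA in either library.

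The fall sat within the transcribed span itself. Among 1325 loci of at least 50 kb with high RNA, the window 10 kb before the start averaged 1.94 log2 RPM in library 1 and 1.93 in library 2. The start window averaged 1.77 and 1.73, and the window 40 kb into the locus 1.66 and 1.64. Toward the other end the level was 1.66 and 1.61 at 20 kb before the end window, 1.81 in both libraries at the end window and 1.93 and 1.92 at 10 kb beyond it. The steepest change at both borders thus fell within 1 to 2 windows, near the resolution of the table. In loci with middle RNA the curve had the same shape with a smaller dip, from 1.97 and 1.96 before the start to 1.80 and 1.81 at 40 kb. Low RNA loci went from 1.97 and 2.00 to 1.94 and 1.97, and trace RNA loci from 1.98 and 2.01 to 1.97 and 2.02.

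**Figure D2:**
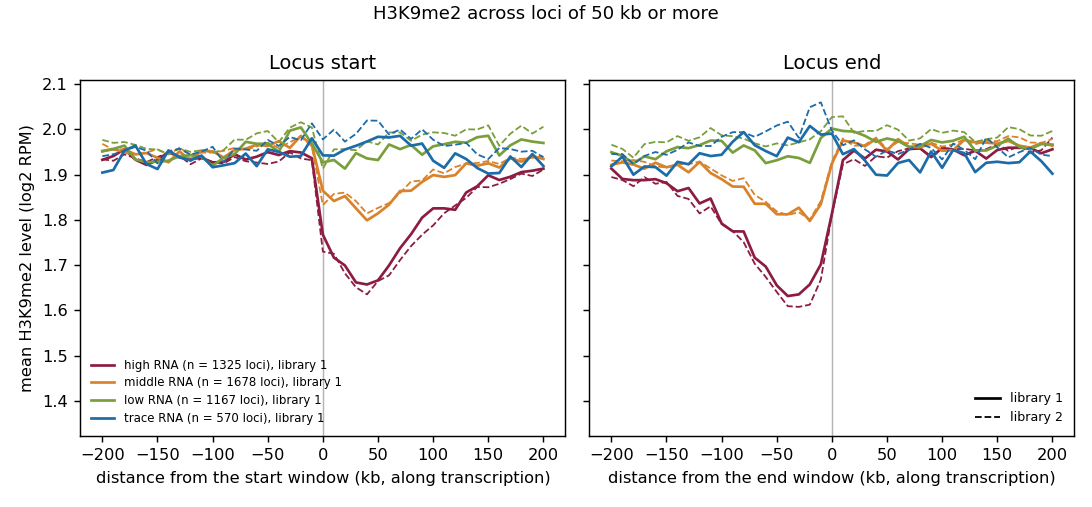
Mean H3K9me2 level (log2 RPM) of 10 kb windows by distance from the start window (left) and the end window (right) of loci of 50 kb or more, by RNA class; solid lines are library 1 and dashed lines library 2. High RNA loci go from 1.94 and 1.93 before the start to 1.66 and 1.64 at 40 kb.

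Each locus can also be set against its own surroundings, the 100 kb on either side. Loci with high RNA lay below their flanks by -0.242 log2 in library 1 and -0.258 in library 2, and 1320 of 1759 were below them in both libraries (75.0%). Over all 6689 loci of at least 5 member windows this share was 54.7%. Middle RNA loci lay below their flanks by -0.132 and -0.129, with 1328 of 2232 below in both libraries (59.5%). Low RNA loci differed from their flanks by -0.030 and -0.022, trace RNA loci by 0.037 and 0.042, and the 130 loci without a read by 0.014 and 0.0025. For named and unnamed loci with high RNA the values were -0.246 and -0.260, and -0.219 and -0.248. The dip was of similar size across lengths, with a median of -0.239 for named high RNA loci of 30 to 100 kb, -0.254 at 100 to 300 kb and -0.230 at over 300 kb.

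The start window was compared with the rest of the same transcribed locus. Over all transcribed loci, the start window minus the windows at least 20 kb downstream was 0.020 log2 in library 1 and -0.0057 in library 2, of opposite sign in the 2 libraries. From 5 log2 RNA it was 0.036 and 0.0092, positive in both. It was 0.044 and 0.024 for high RNA loci and -0.032 and -0.054 for trace RNA loci, as means over loci. Of 2756 high RNA loci, 35.4% had a higher start window in both libraries and 28.9% a lower one. Of 2276 trace RNA loci, 29.3% had a higher one and 36.5% a lower one. A start window also holds DNA before the start, so that a level confined to less than 10 kb cannot be seen here.

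The CG content of the promoter went with the level of the start window. A RefSeq promoter within 1000 bases matched 7057 gene-named loci of 14428. Among all 31396 promoters of the same length, 35.2% held at least 15 CG and 43.2% held 5 or fewer, searched as the letters CG, which read alike on both strands. Start windows of transcribed loci measured 1.79 and 1.74 log2 RPM with at least 15 CG (n = 3179), 1.87 and 1.84 with 6 to 14 (n = 610) and 1.98 and 1.90 with 5 or fewer (n = 210). For starts below 3 log2 RNA the values were 1.89 and 1.87 (n = 1689), 1.97 and 1.96 (n = 697) and 1.92 and 1.93 (n = 672). At 15 or more CG, start windows of transcribed loci were lower than those of the other loci in both libraries, and at 5 or fewer CG the sign of the difference in means differed between libraries. The medians there were 1.99 and 1.92 for transcribed loci and 2.04 and 2.05 for the other loci, lower for transcribed loci in both libraries. Base composition of the reads moves with CG content, and its part in these values was not tested.

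The difference was also present within single megabases. In 1743 Mb-sized bins with at least 5 windows of either kind, transcribed windows lay below windows without a locus by -0.253 log2 in library 1 and -0.273 in library 2. They were lower in both libraries in 85.8% of these bins and higher in both in 9.01%. Against windows with trace or no RNA in the same 1 Mb, the difference was -0.227 and -0.239 over 1439 bins, lower in both libraries in 80.7%. Over all member windows without regard to place, the same differences were -0.157 and -0.190 against windows without a locus, and -0.169 and -0.188 against windows with trace or no RNA.

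Over whole megabases the relation with transcription was not a straight one. The level of 2371 bins of 1 Mb had a Pearson correlation of -0.0065 with the percentage of windows transcribed. Bins with 0 to 5% transcribed windows averaged 1.85 and 1.89 log2 RPM (n = 630), bins with 20 to 40% averaged 1.98 and 2.00 (n = 590), and bins with at least 60% averaged 1.86 in both libraries (n = 236). Megabases with the fewest and with the most transcribed windows thus had similar levels, and those between them the highest.

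The same shape appeared with distance. Windows without a locus averaged 2.05 log2 RPM in both libraries at 10 kb from the nearest transcribed locus and 2.09 and 2.12 at 60 to 100 kb. They averaged 1.96 and 2.00 at 210 to 500 kb, 1.82 and 1.86 at 510 to 1000 kb and 1.74 and 1.75 beyond 1 Mb (n = 19020). The highest levels thus lay at 30 to 100 kb from transcribed loci, and the lowest beyond 1 Mb. There 11.8% of windows were low and 0.326% high against 8.01% and 2.54% of all windows. Median reads were 25 and 70 beyond 1 Mb and 32 and 88 at 60 to 100 kb. With at least 10 reads in both libraries, the difference of these distance classes was -0.296 in place of -0.358. That minimum removes low levels themselves. The part of read mapping and base composition in this pattern was not tested.

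**Figure D3:**
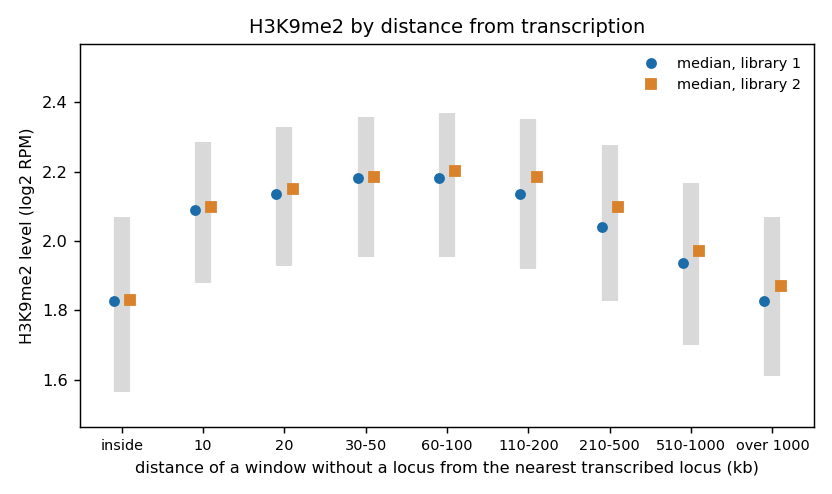
Median H3K9me2 level (log2 RPM) of windows inside transcribed loci and of windows without a locus by distance from the nearest transcribed locus (kb), in library 1 (circles) and library 2 (squares); grey spans the 25th to 75th percentile of windows. Medians are 1.83 in both libraries inside loci, 2.18 and 2.20 at 60 to 100 kb, and 1.83 and 1.87 beyond 1000 kb.

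Levels were also low at the centromeric end of the chromosomes. Windows at 3 to 5 Mb averaged 1.60 and 1.62 (n = 3652), windows at 5 to 10 Mb 1.77 and 1.79, and windows at 10 to 20 Mb 1.90 and 1.94. The last 2 Mb at the distal end averaged 1.92 and 1.95. The medians at 3 to 5 Mb, 1.83 and 1.85, were nearer to the rest than the means, and 8.98% of these windows lay 1 log2 below the median in both libraries.

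Among single genes, the 10 named loci with the most RNA covered a range of H3K9me2. Dnmt1 (chr9:20907206-20960182), the maintenance DNA methyltransferase and a major oocyte transcript, had 8187 to 9311 RPM of RNA in the 6 controls, and its body measured 1.86 log2 RPM of H3K9me2 in library 1 and 1.85 in library 2. Its flanks measured 2.14 and 2.11. Rdx, which encodes the membrane-cytoskeleton linker radixin, had 4308 to 5749 RPM of RNA and a body at 1.38 and 1.37, against flanks at 1.83 and 1.93. Both bodies lay below their flanks in both libraries.

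Fip1l1 (chr5:74534933-74598790), a factor of mRNA 3' end processing, had 2696 to 3146 RPM of RNA. Its 7 windows ran from 1.27 to 1.94 in library 1 and from 0.830 to 1.62 in library 2, against flank means of 2.02 and 2.07. The flank windows beyond its end were higher than those before its start. Mdm4, a regulator of p53, had a body at 1.66 and 1.48 and flanks at 2.14 and 2.03. Spin1, a reader of histone methylation expressed in oocytes, had 2433 to 2754 RPM of RNA and a higher body than these genes, at 1.91 and 1.92. Nlrp5, a subcortical maternal complex gene with 3228 to 4096 RPM of RNA, measured 1.14 and 1.51, but its flanks were low too, at 1.16 and 1.39. The order of RNA level among these genes was not the order of H3K9me2, and Rdx, Fip1l1 and Spin1 overlap loci on the other strand.

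Of the 3307 transcribed gene-named loci with at least 5 member windows, 622 (18.8%) lay above the median window level, against 30.4% of all 5016 gene-named loci of that size. The 8 with the highest H3K9me2 had modest RNA. Gli2 (chr1:118834132-119053619), a transcription factor of the hedgehog pathway, had 21.1 to 37.9 RPM of RNA. Its 23 windows ran from 1.99 to 2.88 in library 1 and from 1.93 to 2.92 in library 2, and its flanks were as high, with means of 2.51 and 2.39. Sh3bp2 (chr5:34525760-34563641), an adaptor of immune cell signalling, had the most RNA of the 8, at 66.0 to 89.0 RPM. It measured 2.46 and 2.42 against flanks at 1.88 and 1.82, so that its transcribed body stood above its surroundings in both libraries.

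The ubiquitin ligase gene March4 measured 2.53 and 2.46 against flanks at 2.04 and 1.98, and the small GTPase gene Rasd2 2.52 and 2.51 against 2.04 and 2.01. Akna, Cnpy1, F730016J06Rik and Usp13 measured 2.40 to 2.55 in library 1 and 2.46 to 2.50 in library 2. Their flanks were high as well, at 2.21 to 2.50 and 2.22 to 2.44. The 8 were picked for a high body level, which by itself favours a body above its flanks. All of the 8 but Gli2 lay above their flanks in both libraries, as did 28.2% of 6689 loci of at least 5 member windows.

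**Figure D4:**
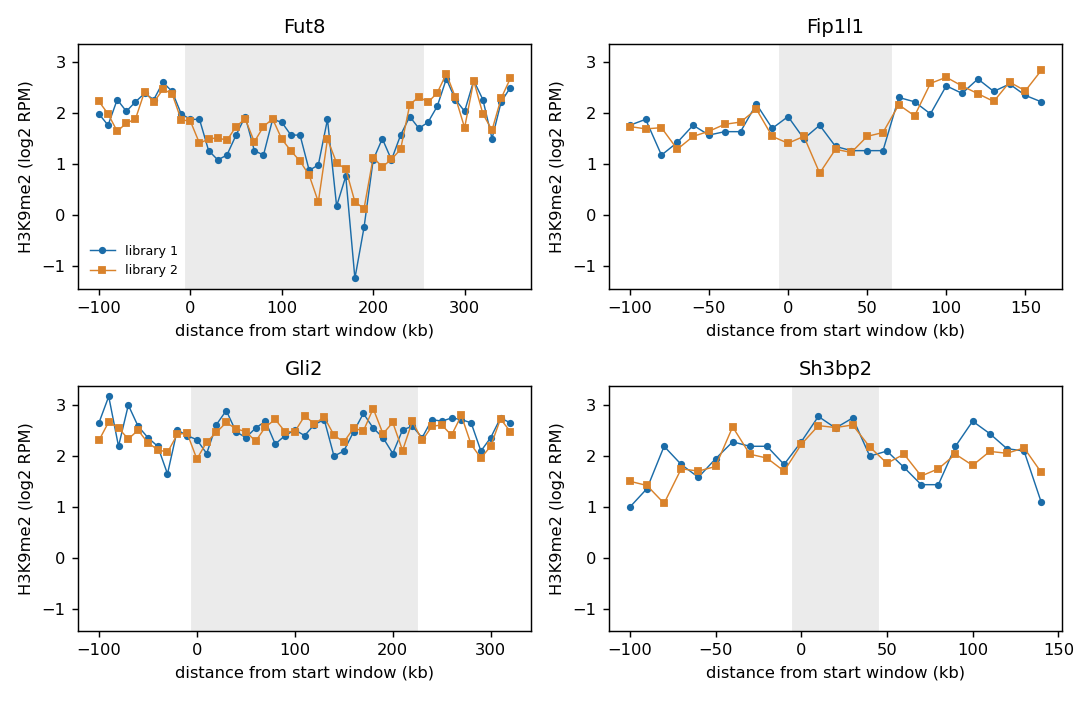
H3K9me2 level (log2 RPM) of single 10 kb windows by distance from the start window (kb) in Fut8, Fip1l1, Gli2 and Sh3bp2 and the 100 kb on either side, in library 1 (circles) and library 2 (squares); grey marks the locus. Fut8 and Fip1l1 fall within the locus, Gli2 does not leave the level of its flanks, and Sh3bp2 is above its own.

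Long transcribed genes could be followed over many windows. Of 838 named transcribed loci with at least 15 member windows, 554 lay below their flanks in both libraries and 197 above them. The median difference was -0.161 log2. Of all 6689 loci of at least 5 member windows, 54.7% lay below and 28.2% above their flanks in both libraries. In 58 of the 838 the fall was at least 0.5 log2 in both libraries, and in 5 the rise was. No share over all loci is given at that limit. Fut8 (chr12:77221010-77476338), the core fucosyltransferase, had 126 to 150 RPM of RNA. Its 26 body windows had a median of 1.39 in library 1 and 1.43 in library 2, from -1.23 to 1.94 and from 0.135 to 2.33. Its 20 flank windows had medians of 2.25 and 2.23, from 1.50 to 2.67 and from 1.65 to 2.78. The lowest body windows lay below every flank window, and the ranges overlapped in both libraries.

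Zcchc7 (chr4:44756534-44932203), a subunit of a nuclear RNA surveillance complex, had 65.1 to 91.7 RPM of RNA. Its 19 body windows had medians of 1.35 and 1.06 and its 20 flank windows 2.27 and 2.14, and no body window had fewer than 10 reads in library 1. The other 3 of the 5 largest falls, Gm4767, Zfp960 and Obox2, lie in clusters of related gene copies and had body windows with few reads. Gm4767 had a median of 3 reads per body window in library 1 and 29 in its flanks, and 31 of its 38 body windows were under 10 reads. Obox2 had 10 against 20 and Zfp960 20 against 23.5. Copy number and read mapping in these places were not tested.

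The largest rises were of another kind. Phactr3 (chr2:178118097-178336500), a regulator of protein phosphatase 1 and actin, had 131 to 176 RPM of RNA and body medians of 2.27 and 2.38 over 22 windows. Its flank medians were 1.39 and 1.40, and 8 of its 20 flank windows were low. Dner, a Notch ligand, had 7.54 to 12.3 RPM of RNA and measured 2.20 and 2.18 against flanks at 1.48 and 1.53. Atg7, an autophagy enzyme, measured 1.86 and 1.80, below the median window, and rose only against flanks at 0.491 and 0.342 in which 8 of 19 windows held under 10 reads in library 1. Gm10430 and Zranb3, the other 2 of the 5, also had flanks below the median window, at 1.67 and 1.48 for Gm10430 and 1.28 and 1.21 for Zranb3.

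Of the 94 named loci without an RNA read and with at least 5 member windows, 67.0% lay above the median window. The share over all 5016 gene-named loci of that size was 30.4%. Slc6a3 (chr13:73536747-73578672), the dopamine transporter, measured 2.62 in library 1 and 2.81 in library 2 against flanks at 2.27 and 2.29. Ndrg1, a stress-responsive gene, measured 2.69 and 2.71 against flanks at 2.49 and 2.56. Wscd1, Tmem90b, Gpr45, Arnt2, Car12 and Slc28a2 measured 2.30 to 2.57 and 2.29 to 2.60. These 8 were chosen for high levels. All of them stood above the mean of their flanks in both libraries, as did 49.2% of all loci without a read and 28.2% of all 6689 loci.

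Most of the lowest loci of both classes had few reads. Among transcribed loci, AC130832.1, Gm4767, Rnaset2b, Srp54c, Gm3259, Tmem181a, Fbxw28 and Zfp955a ran from -1.90 to 0.351 in library 1 and from -1.56 to 0.130 in library 2. Their body windows had medians of 2 to 17 reads in library 1 against 28 over all member windows. Among loci without RNA reads, Gm8857, Gm1604A, Gm1604b, Gm7732, Gm2399 and Vmn2r29 ran from -1.24 to 0.554 and from -1.70 to 0.851. Pramel5 and Gm4788, the other 2, measured 1.56 and 1.61, and 1.50 and 1.77, with medians of 21.5 and 23.5 reads per body window in library 1. No input signal was used here, so that fewer mapped reads and less H3K9me2 cannot be told apart in these loci.

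Stretches of 500 kb were ranked by their mean level, which did not follow transcription alone. It had a median of 1.95 log2 RPM over all positions, with 1.62 at the 5th and 2.24 at the 95th percentile. The highest stretch, chr15:66660001-67160000, averaged 2.51 in library 1 and 2.61 in library 2 and held Tg, the thyroglobulin gene, with Sla, Ccn4, Ndrg1 and St3gal1. None of its 50 windows was transcribed, and neither was any of chr2:93090001-93590000, which averaged 2.56 and 2.53 and held Cd82, Trp53i11 and Tspan18.

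The other 3 of the 5 highest stretches held transcription. The stretch around Gli2, chr1:118830001-119330000, averaged 2.51 and 2.47 with 23 transcribed windows. That at chr4:63130001-63630000, with Akna, Whrn and the orosomucoid genes Orm1, Orm2 and Orm3, averaged 2.53 and 2.46 with 17. That at chr1:92580001-93080000, with Gpc1, Kif1a and Capn10 among 14 coding genes, averaged 2.48 and 2.52 with 13. A transcribed window was therefore not always low, and these regions had high levels on both sides of their genes.

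The 5 lowest stretches held copies of Vmn2r or Vmn1r pheromone receptor genes on chromosome 7 or predicted Gm genes on chromosomes 12 and 14. They averaged -1.50 to -0.998 in library 1 and -1.74 to -1.21 in library 2. Median reads per window there were 2 to 4 in library 1 and 6.5 to 8 in library 2, and no window was transcribed.

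Gene groups were compared over RefSeq gene spans on the autosomes. The median of 20385 coding genes was 1.91 log2 RPM, and 39.1% of them lay above and 39.1% below the coding median in both libraries. Of 40 measured zona and oocyte genes, 27 were below and 6 above, with a median of 1.73. Zp3, the sperm-binding zona pellucida glycoprotein, had 1018 to 1700 RPM of RNA and measured 1.50 in both libraries in its 1 window. Ddx4, a germ cell RNA helicase, measured 1.45 and 1.44 over 7 windows. H1foo, the oocyte linker histone, had 1506 to 1710 RPM of RNA and measured 2.27 and 2.02 over 2 windows. Sohlh1, a transcription factor of early oocyte growth, measured 2.71 and 2.48 with 0 to 0.524 RPM of RNA. A gene of 1 to 3 windows has a counting error near that of a single window, and such values are descriptions only.

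Housekeeping genes had the same median, 1.73, with 15 of 23 below and 4 above. Npm1, the nucleolar protein nucleophosmin, measured 1.26 and 1.25, and the ribosomal protein gene Rps3 measured 2.15 and 2.20, the highest of the list. The list of H3K9 methylation and histone demethylase genes had a median of 1.64, with 20 of 23 below and 1 above. Cbx5, which encodes HP1 alpha, measured 1.27 and 1.55, and Kdm1b, listed as a histone demethylase gene, 1.45 and 1.44. Mphosph8, an H3K9 methylation reader with 567 to 797 RPM of RNA, measured 1.57 and 1.47. Ehmt2 measured 1.91 and 1.94 with 5.03 to 12.5 RPM of RNA. Ehmt1 measured 1.68 and 1.57 with 54.5 to 90.5 RPM. Of this pair of writer genes, the one with more RNA had the lower H3K9me2 in both libraries. That order did not hold throughout the list. Kdm4c measured 1.70 and 1.56 with 0 to 3.33 RPM, and Cdyl 1.92 and 1.89 with 66.0 to 113 RPM.

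Low levels were also found in groups with few genes known to be transcribed. Developmental transcription factors had a median of 1.79 with 23 of 44 below and 8 above. An RNA locus was matched for 21 of them, of which 3 were transcribed. Msx1, a homeobox gene without an RNA read, measured 1.27 and 1.17, and Wt1, a regulator of gonad and kidney formation, 2.23 and 2.27. Of 39 Hox genes 30 were below and 1 above, with a median of 1.66, and none of the 9 with a matched RNA locus was transcribed. The replication-dependent Hist1 histone genes had a median of 1.61, with 34 of 51 below and 4 above. None of them had a matched RNA locus, so their transcription is not known here. These genes are short and lie in clusters, so that neighbours share windows.

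Long neuronal adhesion and synapse genes, with a median length of 1137 kb, lay at the coding median, 1.91, with 12 of 36 above and 16 below. Opcml, a neuronal adhesion molecule, measured 2.24 and 2.33 over 114 windows with 5.24 to 10.3 RPM of RNA. Sgcz, a sarcoglycan with no RNA read, measured 1.70 and 1.77 over 116 windows. Silence in control RNA therefore did not go with a high level in each of these genes.

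Clustered families of differentiated tissues differed in direction. Of 53 keratin genes, 42 were above and 6 below the coding median in both libraries, with a median of 2.28. Beta-defensins (Defb) had a median of 2.20 with 31 of 42 above and 5 below, and Serpinb protease inhibitors 2.16 with 20 of 28 above and 4 below. Keratin-associated proteins (Krtap) had 2.11 with 35 of 56 above and 8 below, and C-type lectins (Clec) 2.05 with 18 of 33 above and 6 below. Other families went the other way. Of 11 Skint genes 9 were below and 0 above, of 11 Klra natural killer receptors 8 below and 1 above, of 9 Cyp3a cytochromes 6 below and 2 above, and of 25 prolactin-family (Prl) genes 12 below and 5 above. Olfactory receptor genes lay at the coding level, 1.93, with 412 of 1100 above and 368 below, and so did Zfp zinc finger genes at 1.92, with 140 of 382 above and 144 below. Vmn2r pheromone receptors were at 1.67, with 85 of 118 below and 17 above, and major urinary protein genes (Mup) at 0.464, with 18 of 23 below. Vmn2r genes ranged from -3.04 to 2.67 in the mean of the libraries. Of the Vmn2r windows 27.4% were low, and of the Mup windows 75.0%, against 8.01% of all member windows. The low shares were 26.3% for Cyp3a, 15.6% for Prl, 14.3% for Klra and 10.8% for Skint windows. For Krt, Defb, Serpinb, Krtap and Clec windows they ran from 0% to 6.98%. Copy number and read mapping were not tested in any of these families.

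**Figure D5:**
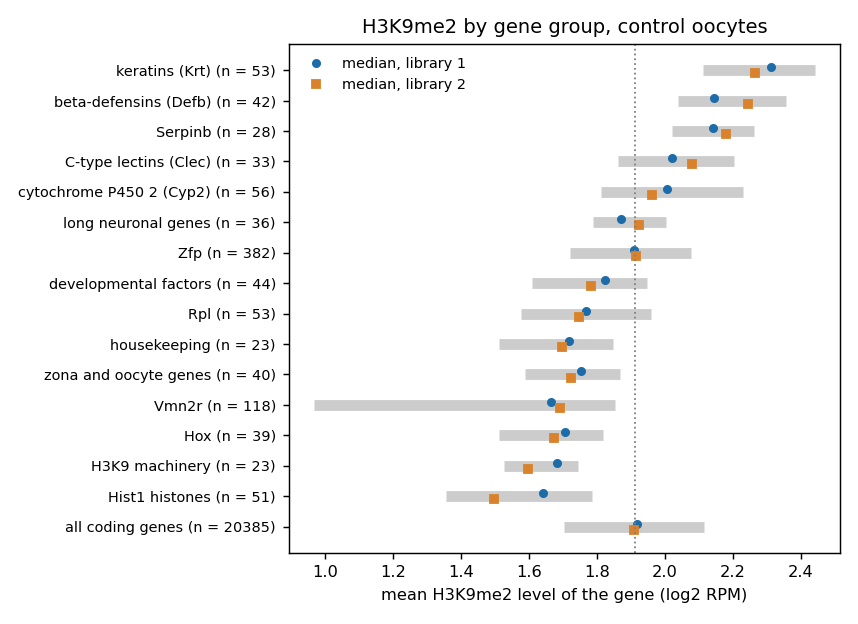
Median over genes of the mean H3K9me2 level (log2 RPM) in library 1 (circles) and library 2 (squares) for gene groups; grey bars span the 25th to 75th percentile of genes and the dotted line is the median of all coding genes. Of the groups drawn, keratins lie highest at 2.31 and 2.26 and Hist1 histone genes lowest at 1.64 and 1.50.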

How the data were processed

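H3K9me2 ChIP-seq (ULI-nChIP) was measured in 2 control samples and RNA-seq in 6. Both deposited tables hold log2 RPM values, per window of 10 kb or per locus, with a feature without reads set to 0.9 read. All read counts above that minimum came out whole within 0.01 read. No input was subtracted as far as the sources show. The submitters' processing notes name GRCm38, Trim Galore, Bowtie2, HISAT2 2.1.0 and Bismark 0.19.0 without roles. Mutant columns were not used, nor were 4 columns that match no sample.

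Window levels were averaged on the log2 scale per library, and RNA as the mean log2 RPM of the 6 controls. No p-values were computed. Tables were handled in pandas 2.3.3, and class differences were tested on simulated data. Alternatives varied the window filter, the overlap, the RNA measure and the libraries used.

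Members and lists were chosen with earlier results of these data known. Named genes are the 10 loci with the most RNA (at least 3 windows), the 8 highest and 8 lowest transcribed and silent loci (at least 5 windows), the 5 largest falls and rises against flanks (at least 15 windows, with at least 10 flank windows), the 5 highest and lowest 500 kb stretches (at least 40 of 50 windows), and the highest and lowest members of the gene lists, with a few others chosen after their values were seen. One list member that this rule names is not reported here. Symbols of 18 loci that had become dates were read back from gene IDs. Loci overlap one another on opposite strands in 12803 cases, and strand use in counting is not given in the sources used here.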

Additional observations from a re-analysis of the deposited data

How the results depend on the processing

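Spearman's rho of level with RNA stayed negative in every alternative run: it was -0.232 with RNA per kb of locus span and -0.238 in library 1 alone, and ran from -0.303 to -0.238 when single libraries were left out. The transcribed minus silent difference (-0.115) stayed negative in every alternative. It was -0.194 with at least 10 reads per window, -0.0190 with windows without reads included, -0.0819 with a locus over at least 50% of the window, -0.0993 with named loci only, -0.141 without loci overlapping another on the other strand, -0.140 with GKAO and -0.141 with GKAQ RNA, -0.148 with RNA per kb, -0.169 from 5 log2 and -0.215 by medians. Single libraries left out gave -0.123 to -0.109. The gene body minus no-locus difference (-0.0926) reversed to 0.200 with windows without reads included. It was -0.118 with at least 10 reads, -0.113 with that overlap, -0.109 with named loci, -0.0778 without other-strand overlaps and -0.132 by medians, and -0.103 to -0.0822 by single library. Start minus inner windows (0.0071) ran from -0.0057 to 0.0198 with single libraries left out. It was 0.0226 from 5 log2 and 0.0122 without other-strand overlaps, positive in both libraries under each. At a limit of 1 log2, high RNA windows were low in 2.30% (14.7% at 0.5 log2) and high in 0% (0.515%), and no-locus windows were low in 3.07% (7.05%) and high in 0.00081% (3.25%). The within-megabase difference (-0.263) was -0.279 with at least 10 reads. Levels are scaled read counts, so this read minimum cuts the low end of the level itself and is no independent check. Medians, and the read minimum for the regional differences, were chosen after seeing the data. Window GC content could not be computed without a genome, and its alternatives were not run. No paired analysis was possible because the results come from no test: class differences were taken within each library, and replicate numbers do not link H3K9me2 and RNA samples. Depth limits single windows to an error near the spread between libraries, and 2 libraries limit every value.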
